A study of Oryza sativa with 16 samples.

Results

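The step from the earliest to the second sampled stage of panicle initiation was described in shoot apical meristems of rice (Oryza sativa), once in the d1 mutant and once in wild type (WT). The groups were d1 at stage 2, d1 at stage 1, WT at stage 2 and WT at stage 1. All 4 groups are dissected meristems of greenhouse plants 3 months old, grown for 100 days, and the mutant plants carry d1-1, an allele of RGA1, which encodes the alpha subunit of the heterotrimeric G protein. Each group has 2 libraries made from total RNA, so the step rests on 8 of the 16 libraries of the study and on 4 of the 8 columns of the authors' table. The other columns are stages 4 and 7 of each genotype. The sources used here do not define the stage numbers and name no WT cultivar.

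Each column holds FPKM (fragments scaled by transcript length and by the library total) that the authors combined from a pair of libraries, so no value below has an SD. Per the labels about 40 M reads were obtained per library, but the reads behind a value are unknown. A step is log2(FPKM + 1) at stage 2 minus stage 1 within a genotype, which understates the change of low genes. Of 34302 rows, 19757 reached 1 FPKM in at least 2 of the 8 columns and were tested. Summed FPKM lay between 637594 and 669241 in the 4 columns, and 18037 to 18625 rows reached 1 FPKM in each. RGA1 (OS05G0333200, chromosome 5) had 20.9 FPKM at stage 2 and 22.0 at stage 1 in d1, against 29.6 and 27.5 FPKM at the same stages in WT. Its transcript was lower in d1 at both stages and hardly stepped, by -0.07 in d1 and 0.10 in WT. Names are printed only where an identifier written down from general knowledge also matched a gene name on the same chromosome, in the same order, in an NCBI gene table.

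At panicle initiation the rice shoot apex stops making leaves and becomes an inflorescence meristem, which then gives rise to branch meristems and, from these, to spikelets. KNOX homeobox genes such as OSH1 keep the cells of these meristems undetermined. ALOG proteins, named after Arabidopsis LSH1 and rice G1, are small nuclear proteins. One of them, TAW1, promotes branching in rice by delaying the change to spikelet identity. MADS-box genes of the AP1 and FUL group, among them MADS14, promote the change to an inflorescence. Leaf primordia around the apex carry genes of photosynthesis, which an apical meristem itself expresses weakly.

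In d1, 287 genes were higher at stage 2 than at stage 1 by a step of at least 1 (1.45% of those tested) and 177 were lower (0.896%). In WT, 392 genes were higher (1.98%) and 112 lower (0.567%). Both genotypes thus had more genes above than below the threshold, and no test is possible for a step of 1 genotype with 1 value per group. Steps past the threshold in the same direction in both genotypes were found for 115 genes, 92 of them higher at stage 2 (0.466%) and 23 lower (0.116%). These are 24.8% of the 464 genes past the threshold in d1 (2.35% of those tested) and 22.8% of the 504 past it in WT (2.55%). A further 168 genes stepped in d1 alone and 177 in WT alone, where the other genotype had to lie within 0.5 of no step. Steps in opposite directions were found for 66 genes. The remaining genes past the threshold in 1 genotype had an absolute step between 0.5 and 1 in the other.

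**Figure D1:**
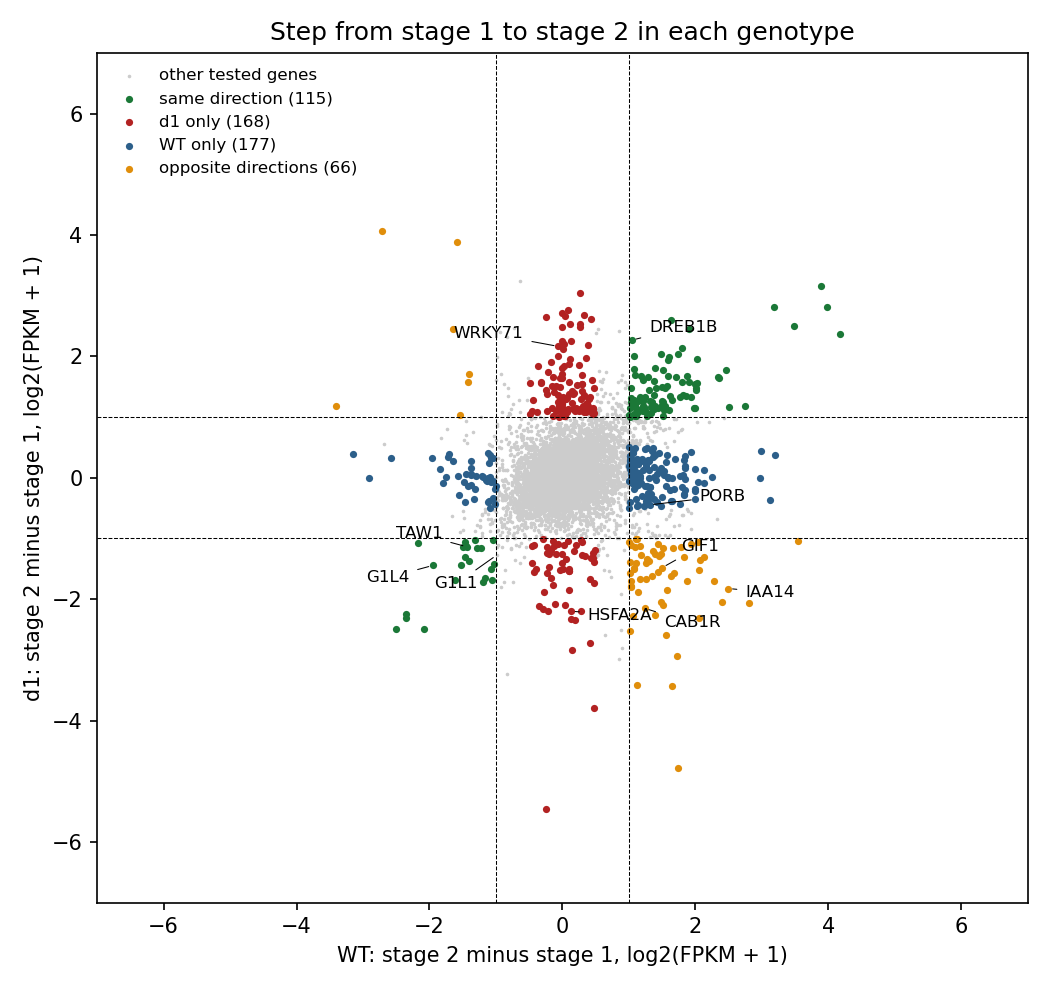
Step of each of 19757 tested genes in d1 (vertical axis) against its step in WT (horizontal axis), both as log2(FPKM + 1) at stage 2 minus stage 1. Dashed lines mark steps of 1 in either direction. The 115 green genes lie in the upper right and lower left corners, and 59 of the 66 orange genes lie in the lower right corner, lower at stage 2 in d1 and higher in WT.

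The steps of d1 and WT share no column, and the shares of all tested genes are given beside each count as a description. Of the 287 genes higher at stage 2 in d1, 92 (32.1%) were also higher in WT, against 1.98% of all genes. A further 7 (2.44%) were lower in WT, against 0.567% of all genes. Of the 177 genes lower at stage 2 in d1, 23 (13.0%) were also lower in WT, against 0.567% of all genes. In WT 59 of the 177 (33.3%) were higher, against 1.98% of all genes. Among genes lower in d1, those on the opposite side in WT thus outnumbered those on the same side. Both shares lay above those of all genes, which are not matched for abundance. Of the 464 genes past the threshold in d1, 274 had a mean under 5 FPKM, against 6003 of the 19757 tested. No comparison matched for abundance was made, so these shares do not show how far the steps go together. The threshold is not a natural gap, since 30 genes lay within 0.1 inside it and 46 within 0.1 outside it on the smaller of their 2 steps in the same direction.

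Across the 19757 genes the d1 step and the WT step correlated with Pearson's r of 0.213 and Spearman's rho of 0.294, given as a description because genes are not independent replicates. Agreement differed with abundance. Among genes with a mean under 5 FPKM over the 8 columns, 13.9% of those past the threshold in d1 stepped the same way in WT (r = 0.062 over 6003 genes). The share was 36.6% between 5 and 20 FPKM (r = 0.30 over 6810 genes) and 49.2% at 20 FPKM or more (r = 0.45 over 6944 genes). Under 5 FPKM, same and opposite steps were nearly equal in number, at 38 and 36. They numbered 48 and 20 between 5 and 20 FPKM, and 29 and 10 at 20 FPKM or more. By these measures d1 and WT went together less here than at the later pairs of stages. For the step of stage 2 to stage 4, 461 genes moved the same way, 43.7% of those past the threshold in d1, and r was 0.498. For stage 4 to stage 7 there were 364 such genes, 51.3% of those in d1, and r was 0.643. Opposite steps numbered 66, 51 and 15 for the 3 pairs of stages in order. Steps also spread less here, with an SD over genes of 0.35 in both genotypes, against 0.41 to 0.49 at the later pairs. The filter used all 8 columns, so genes low at stages 1 and 2 could pass it on stages 4 and 7. The difference between pairs of stages was not tested.

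**Figure D2:**
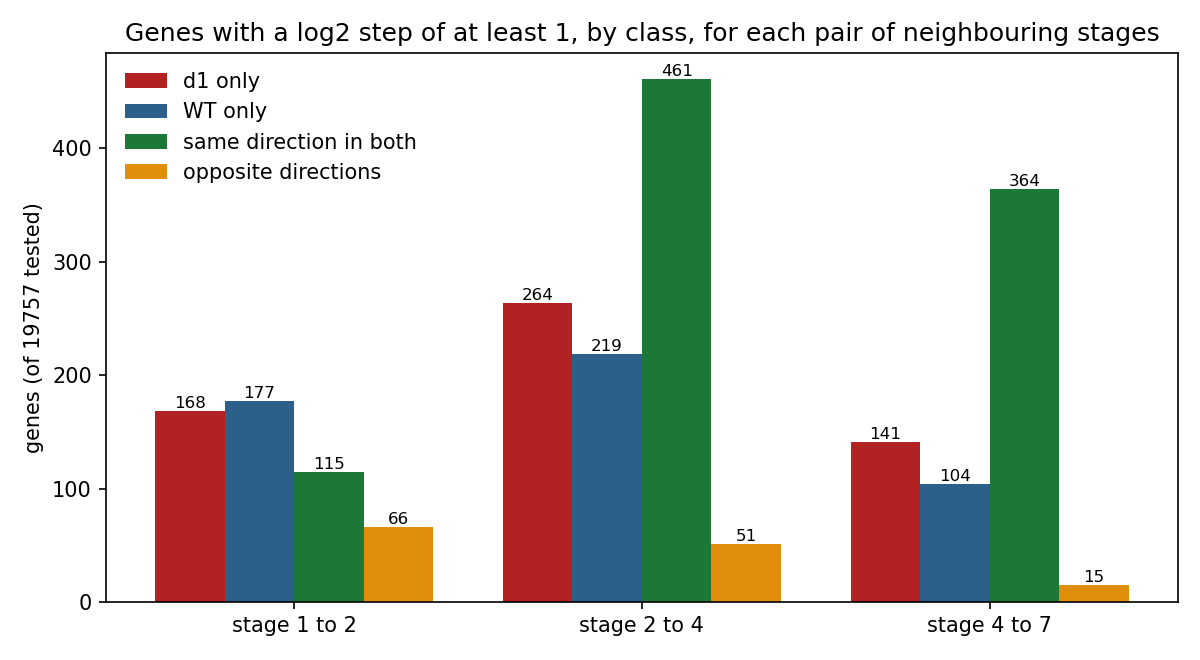
Number of genes with a log2 step of at least 1 for each pair of neighbouring stages, among 19757 tested genes. Bars are genes stepping in d1 alone, in WT alone, in the same direction in both, and in opposite directions. From stage 1 to 2 the same-direction bar (115) is lower than both single-genotype bars (168 and 177), while at the later pairs (461 and 364) it is the highest.

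The genes lower at stage 2 in both genotypes included ALOG genes of the panicle. G1L4 (OS04G0516200, chromosome 4) stood in d1 at 15.8 FPKM at stage 2 and at 44.7 FPKM at stage 1, against 8.03 and 33.9 FPKM at the same stages in WT. Its stage 2 value was below its stage 1 value by more than a factor of 2 in both genotypes, with steps of -1.44 in d1 and -1.95 in WT. TAW1 (OS10G0478000, chromosome 10) in d1 reached 44.1 FPKM at stage 2 and 98.2 at stage 1, against 34.4 and 94.8 FPKM in WT. Both genotypes thus began at nearly the same TAW1 level, and both lay far below it at stage 2, with steps of -1.14 in d1 and -1.44 in WT. G1L1 (OS02G0166800, chromosome 2), a further ALOG gene, had 20.8 FPKM at stage 2 and 51.7 at stage 1 in d1, against 27.9 and 56.2 FPKM in WT. G1L2 (OS06G0672400, chromosome 6), the most abundant ALOG gene named here, stood in d1 at 121 FPKM at stage 2 and at 209 FPKM at stage 1, against 106 and 200.3 FPKM in WT. In each of these 4 genes both stage 2 values lay below both stage 1 values. G1 (OS07G0139300, chromosome 7), which in rice keeps sterile lemmas small, in d1 reached 13.3 FPKM at stage 2 and 15.7 at stage 1, against 10.0 and 20.4 FPKM in WT. Its steps were unequal, -0.23 in d1 and -0.96 in WT. OS02G0811000 (chromosome 2), looked up as a further ALOG gene but with a name that did not pass the order check, stood in d1 at 1.40 FPKM at stage 2 and at 1.92 FPKM at stage 1, against 2.21 and 1.26 FPKM in WT. Its steps had opposite signs, -0.28 in d1 and 0.51 in WT.

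In all 5 ALOG genes named here the value at stage 2 was lower in both genotypes. The median step of the 5 was -1.14 in d1 and -0.99 in WT, against -0.02 and -0.01 over all tested genes. They were put together as a group after their values had been seen, and G1L4 was added to its list only then, so the group counts are a description. A fit over both genotypes (limma on log2(FPKM + 1), all 8 columns, genotype as block) passed 2 of them at an adjusted p under 0.05. G1L1 fell by 1.13 ± 0.11 on the log2 scale (moderated SE; adjusted p = 0.030, limma), and under the 10 alternative settings its adjusted p ran from 0.018 to 0.18. G1L2 fell by 0.85 ± 0.09 (adjusted p = 0.040, limma), with 0.027 to 0.18 under the alternatives. TAW1, at -1.29 ± 0.18 (adjusted p = 0.079, limma), and G1L4, at -1.70 ± 0.25 (adjusted p = 0.083, limma), did not pass, and neither did G1, at -0.59 ± 0.30 (adjusted p = 0.57, limma). All 5 had lower values still at stage 4 in both genotypes. TAW1 had 98.2, 44.1, 10.4 and 4.35 FPKM in d1 at stages 1, 2, 4 and 7, and 94.8, 34.4, 5.35 and 3.38 FPKM in WT. G1L4 had 44.7, 15.8 and 0.83 FPKM in d1 at stages 1, 2 and 4, and 33.9, 8.03 and 0.94 FPKM in WT, and it was listed at 0 at stage 7 in both. G1 differed later on, with 6.23 FPKM in d1 and 2.91 FPKM in WT at stage 4 but 87.9 FPKM in d1 and 103 FPKM in WT at stage 7.

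**Figure D3:**
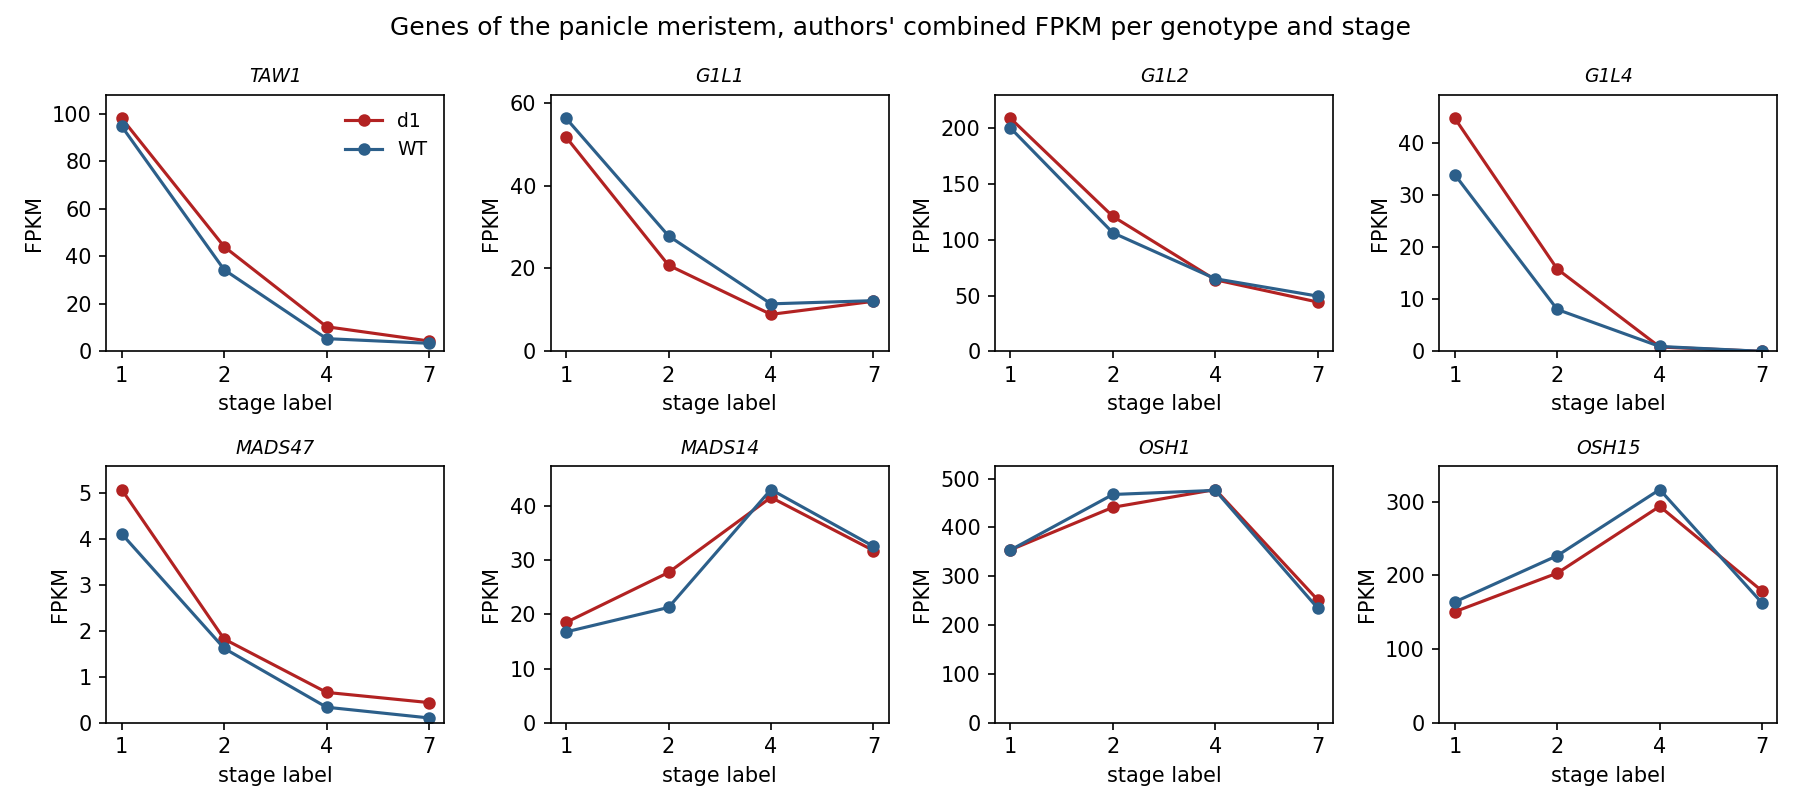
FPKM (the authors' combined value, linear axis from 0) of 8 genes at stages 1, 2, 4 and 7, in d1 (red) and WT (blue); the stage labels are spaced evenly. The 4 ALOG genes and MADS47 are highest at stage 1 in both genotypes and lower at stage 2, while MADS14, OSH1 and OSH15 are higher at stage 2 than at stage 1 in both.

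The other named genes of the panicle branching list stepped less. Besides the ALOG genes the list held 7 named members, of which 5 had a negative step in d1 and 4 in WT, against 11035 of 19757 tested genes in d1 and 10313 in WT. Their median step was -0.04 in d1 and -0.16 in WT. Some identifiers of the list without a matched name stepped more. OS06G0665400 stepped by -2.30 in d1 and -2.36 in WT, and OS03G0706500 by 1.51 in d1 and 1.57 in WT. Over all 21 identifiers of the list, limma called 1 that rose and 3 that fell, 2 of the latter ALOG genes. Of all tested genes 0.329% and 0.081% were called. NL1 (OS05G0578900), the GATA factor of the neck leaf mutant that holds back the bract under the panicle, had 315 FPKM at stage 2 and 378 at stage 1 in d1, against 239 and 343 FPKM in WT. SPL14 (OS08G0509600), the SBP-box regulator of tillering and panicle branching also known as IPA1, was the most abundant member. It stood in d1 at 1558 FPKM at stage 2 and at 1635 FPKM at stage 1, against 1428 and 1917 FPKM in WT. Its step was -0.07 in d1 and -0.42 in WT. LAX1 (OS01G0831000), a bHLH factor needed for axillary meristems, in d1 reached 194 FPKM at stage 2 and 190.4 at stage 1, against 114 and 127 FPKM in WT, so LAX1 was the higher in d1 at both stages. FZP (OS07G0669500), the ERF factor of spikelet identity, was listed at 0.051 FPKM at stage 2 in d1 and at 0 in the other 3 columns, and reached 2.90 to 4.04 FPKM at stages 4 and 7. At stages 1 and 2 it was thus at or near 0 in both genotypes.

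MADS47 (OS03G0186600), a MADS-box gene of the SVP group, had 1.82 FPKM at stage 2 and 5.07 at stage 1 in d1, against 1.61 and 4.10 FPKM in WT. The steps were alike, -1.11 in d1 and -0.97 in WT, with -1.04 ± 0.13 over both (adjusted p = 0.068, limma). MADS17 (OS04G0580700), of the AGL6 group, had a step of -0.55 in d1 and -0.64 in WT at values under 1 FPKM, and had 43.1 FPKM in d1 and 49.8 FPKM in WT at stage 7. EHD4 (OS03G0112700), a zinc finger activator of flowering, stood in d1 at 87.4 FPKM at stage 2 and at 111 FPKM at stage 1, against 83.5 and 117 FPKM in WT. Its step over both genotypes was small but even, -0.41 ± 0.06 (adjusted p = 0.081, limma).

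The fit over both genotypes called 81 genes (0.41%), of which 65 rose (0.329%) and 16 fell (0.081%). Without adjustment 2130 genes had a p under 0.05 (10.8%, where 5% would be past it with no step at all). The called genes had a median absolute step of 1.25 among those that rose and 1.11 among those that fell, and 45 and 8 of them also passed the threshold of 1 in both genotypes. The SE of this fit rests on how far the stage profiles of d1 and WT depart from parallel over the 8 columns and does not measure the spread between libraries. With stages 1 and 2 alone, or without stage 4, limma called 0 genes (2434 and 1684 at an unadjusted p under 0.05), and without stage 7 it called 20.

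Among the 92 genes higher at stage 2 in both genotypes, a pair of unnamed genes stood out by size. OS06G0645500 (chromosome 6) in d1 reached 81.0 FPKM at stage 2 and 8.18 at stage 1, against 61.9 and 3.25 FPKM in WT. It rose by 3.52 ± 0.18 over both genotypes (adjusted p = 0.013, limma). OS01G0257100 (chromosome 1) had 111 FPKM at stage 2 and 14.9 at stage 1 in d1, against 72.7 and 3.68 FPKM in WT, and rose by 3.40 ± 0.34 (adjusted p = 0.032, limma). Both were still higher at stage 4, at 255 and 273 FPKM in d1 and at 192 and 214 FPKM in WT. At stage 1 both were higher in d1 than in WT, by 8.18 against 3.25 FPKM and by 14.9 against 3.68 FPKM. Among the 23 lower in both, OS07G0594400 (chromosome 7) stood in d1 at 3.87 FPKM at stage 2 and at 26.5 FPKM at stage 1, against 5.74 and 37.4 FPKM in WT, and fell by 2.50 ± 0.17 (adjusted p = 0.017, limma). OS06G0665400 (chromosome 6) in d1 reached 2.25 FPKM at stage 2 and 15.0 at stage 1, against 2.16 and 15.2 FPKM in WT, and fell by 2.33 ± 0.13 (adjusted p = 0.016, limma). The last pair of steps, -2.30 in d1 and -2.36 in WT, was nearly identical.

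The KNOX genes of the meristem homeobox list had small steps upward that were alike in both genotypes. OSH1 (OS03G0727000), the marker of undetermined shoot cells, had 441 FPKM at stage 2 and 354 at stage 1 in d1, against 468 and 354 FPKM in WT. OSH15 (OS07G0129700), which in rice also shapes internodes, stood in d1 at 203 FPKM at stage 2 and at 151 FPKM at stage 1, against 227 and 164 FPKM in WT. OSH3 (OS03G0727200) in d1 reached 19.2 FPKM at stage 2 and 13.2 at stage 1, against 17.99 and 12.9 FPKM in WT. For these 3 genes both stage 2 values lay above both stage 1 values, with steps between 0.32 and 0.51 in d1 and between 0.40 and 0.47 in WT. OSH71 (OS05G0129700) did not go with them, at 0.14 in d1 and -0.08 in WT. None of the 4 passed the fit over both genotypes, where OSH3 came nearest (0.48 ± 0.08, adjusted p = 0.10, limma). OSH1 and OSH15, which mark a shoot meristem, were thus high in all 4 groups, while OSH3 lay nearer the median of all tested genes (11.6 FPKM). WOX4 (OS04G0649400), a WOX homeobox gene of the same list, did not pass the filter, at 0.11 FPKM at stage 2 and 0.072 at stage 1 in d1, against 0.70 FPKM and a value listed at 0 in WT.

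MADS14 (OS03G0752800) had 27.8 FPKM at stage 2 and 18.5 at stage 1 in d1, against 21.3 and 16.8 FPKM in WT. Its step was 0.56 in d1 and 0.33 in WT, and the fit over both gave 0.44 ± 0.11 (adjusted p = 0.25, limma). RR22 (OS06G0183100), a type-B response regulator of cytokinin signalling, stepped by 0.37 in d1 and 0.39 in WT (adjusted p = 0.12, limma, over both). BZIP23 (OS02G0766700), a bZIP factor of abscisic acid responses, stood in d1 at 20.4 FPKM at stage 2 and at 10.9 FPKM at stage 1, against 19.1 and 12.2 FPKM in WT (0.73 ± 0.15 over both, adjusted p = 0.17, limma). DREB1B (OS09G0522000), a cold-responsive factor, was the named gene past the threshold upward in both genotypes, with 11.4 FPKM at stage 2 and 1.57 at stage 1 in d1, against 2.75 and 0.81 FPKM in WT. Its steps differed in size, 2.27 in d1 and 1.05 in WT, and the fit over both gave 1.66 ± 1.01 (adjusted p = 0.64, limma). Of the 89 named list members that passed the filter, limma called 1 that rose and 2 that fell, where 0.329% and 0.081% of all tested genes were called. The member that rose, LFNR1, is given with the leaf genes below.

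The 168 genes that stepped in d1 alone were 112 higher (0.567%) and 56 lower at stage 2 (0.283%). They were low genes: the median of their mean FPKM was 1.69 among the higher and 2.04 among the lower ones, against 11.6 over all tested genes. Of the higher ones 24 (21.4%) were listed at 0 in at least 1 of the 4 columns, against 1.12% of all tested genes. OS05G0138300 (chromosome 5) in d1 reached 10.96 FPKM at stage 2 and 0.45 at stage 1, against 0.53 and 0.28 FPKM in WT. OS01G0186900 (chromosome 1) had 28.9 FPKM at stage 2 and 3.39 at stage 1 in d1, against 2.37 and 2.19 FPKM in WT. In both, d1 at stage 2 stood above the other 3 columns. WRKY71 (OS02G0181300), a WRKY factor of defence and gibberellin responses, stood in d1 at 4.04 FPKM at stage 2 and at 0.12 FPKM at stage 1, against 0.069 and 0.12 FPKM in WT. PBZ1 (OS12G0555500), a pathogenesis-related protein of the PR10 family, in d1 reached 0.70 FPKM at stage 2 and 0.12 at stage 1, against 0.29 and 0.20 FPKM in WT. Its step of 0.59 in d1 is under the threshold, so PBZ1 is not among the 168. The other 2 named defence genes, NPR1 and AOC, had steps between -0.17 and 0.10 in the 2 genotypes. OS05G0322900 (chromosome 5), an identifier of the defence list without a matched name, also stepped in d1 alone, by 1.51 in d1 and -0.16 in WT. Of the 7 defence identifiers that passed the filter, matched or not, 2 were higher by at least 1 in d1 and 0 in WT. Over all tested genes the shares were 1.45% in d1 and 1.98% in WT.

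Among the genes lower at stage 2 in d1 alone, the stage 1 value of d1 was often the one that stood apart. OS12G0189300 (chromosome 12) had 3.29 FPKM at stage 2 and 187 at stage 1 in d1, against 2.69 and 3.37 FPKM in WT. OS02G0236600 (chromosome 2) stood in d1 at 0.57 FPKM at stage 2 and at 20.9 FPKM at stage 1, against 1.60 and 0.88 FPKM in WT. HSFA2A (OS03G0745000), a heat shock transcription factor, in d1 reached 0.054 FPKM at stage 2 and 3.84 at stage 1, against 0.40 and 0.28 FPKM in WT. The d1 value at stage 1 was the highest of all 8 columns in 33 of the 56 genes (58.9%), against 17.2% of all tested genes. In the 112 genes higher in d1 alone, d1 at stage 2 was the highest column in 52 (46.4%), against 10.8% of all tested genes. These shares follow in part from how the classes were chosen and are given as a description.

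The 177 genes that stepped in WT alone were 133 higher (0.673%) and 44 lower at stage 2 (0.223%). OS01G0668100 (chromosome 1) had 36.0 FPKM at stage 2 and 27.5 at stage 1 in d1, against 24.1 and 1.73 FPKM in WT. At stages 4 and 7 it had 106 and 77.7 FPKM in d1, against 74.3 and 55.2 FPKM in WT, so the genotypes stood apart chiefly at stage 1. OS06G0142200 (chromosome 6) stood in d1 at 6.83 FPKM at stage 2 and at 9.07 FPKM at stage 1, against 49.2 and 4.73 FPKM in WT. Of the lower ones, OS04G0225067 (chromosome 4) in d1 reached 42.1 FPKM at stage 2 and 31.8 at stage 1, against a value listed at 0 and 7.88 FPKM in WT. OS12G0590700 (chromosome 12) was listed at 0 at both stages in d1 and at stage 2 in WT, and had 6.48 FPKM at stage 1 in WT. SMOS1 (OS05G0389000), an AP2 factor of organ size and brassinosteroid response, stepped by -0.12 in d1 and 0.55 in WT, which is under the threshold. The named gene in the WT class was PORB (OS10G0496900), a protochlorophyllide oxidoreductase of chlorophyll synthesis, with 0.80 FPKM at stage 2 and 1.45 at stage 1 in d1, against 3.85 and 0.95 FPKM in WT.

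**Figure D4:**
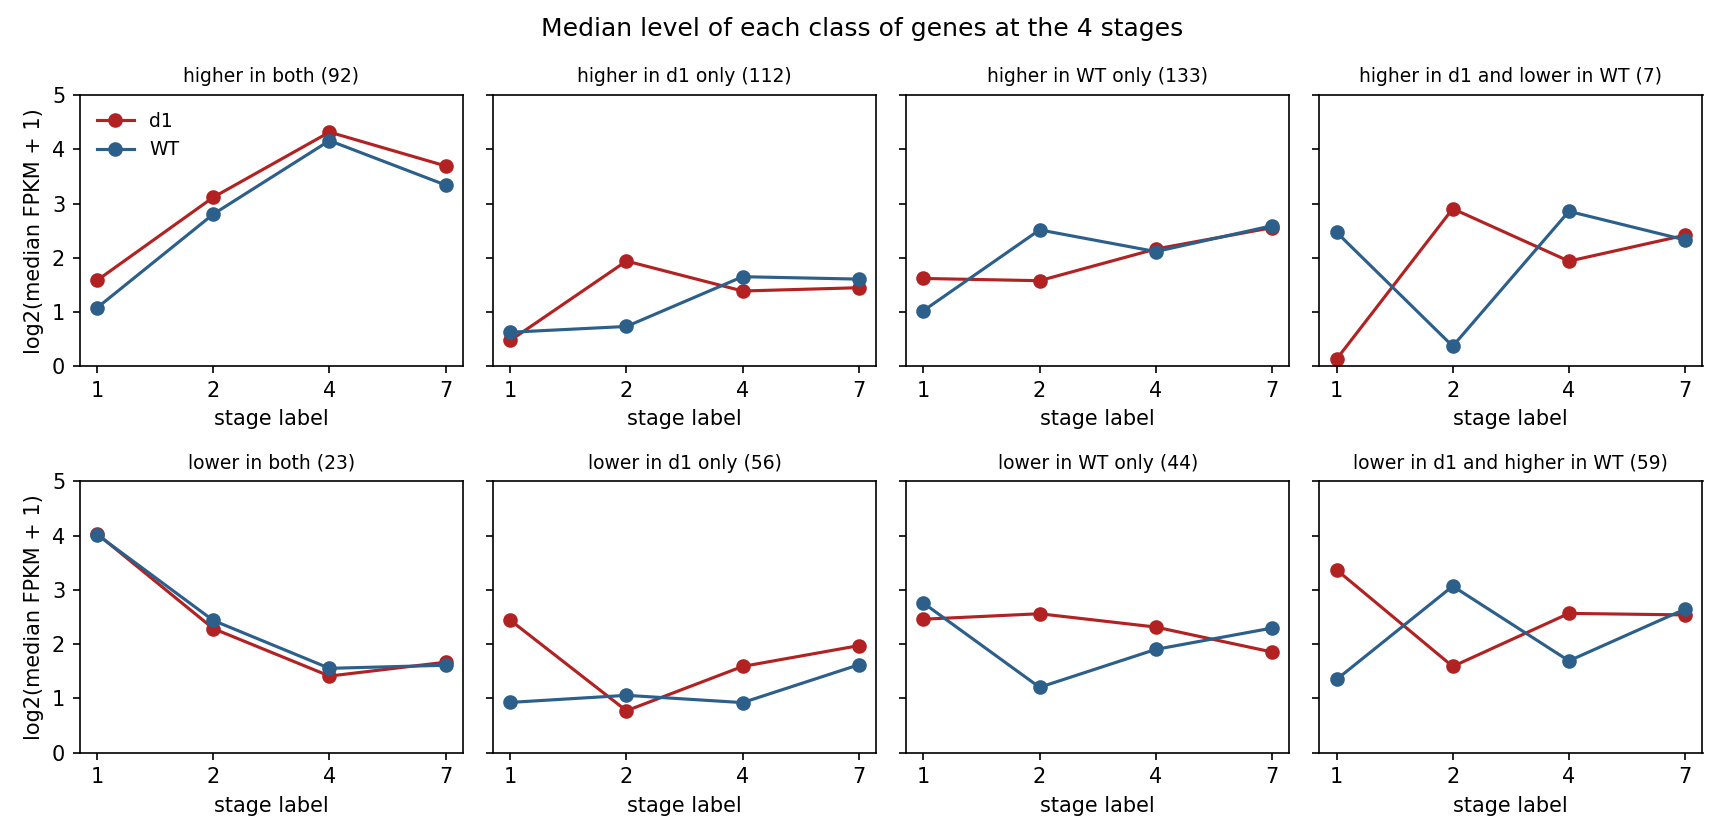
Median level of each class of genes at stages 1, 2, 4 and 7 in d1 (red) and WT (blue), as log2(median FPKM + 1); the number of genes stands above each panel. The thresholds of the classes used stages 1 and 2, and the filter on low values used all 8 columns. The genes lower in both keep close lines for d1 and WT at all stages. On this scale the genes higher in both stand apart most at stage 1, at 2.00 FPKM in d1 and 1.11 FPKM in WT. The classes of 1 genotype or of opposite steps lie closer at stage 7 than at the wider of stages 1 and 2. At stage 7 a gap remains for the genes lower in WT alone, at 2.61 FPKM in d1 and 3.91 FPKM in WT. Another remains for the genes lower in d1 alone, at 2.92 FPKM in d1 and 2.07 FPKM in WT.

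The thresholds of the classes used stages 1 and 2, while the filter on low values used all 8 columns, so the levels at stages 4 and 7 are a description. Of the 112 genes higher in d1 alone, 54 (48.2%) reached 1 FPKM in 2 of the 4 columns of stages 1 and 2, and the others passed the filter with a column of stage 4 or 7. The 92 genes higher in both had medians of 2.00, 7.67, 18.9 and 11.9 FPKM in d1 at stages 1, 2, 4 and 7, and of 1.11, 5.99, 16.9 and 9.13 FPKM in WT. Their level at stage 4 was thus above that at stage 2 in both genotypes. WT at stage 1 was the lowest of the 8 columns in 76 of the 92 (82.6%), against 13.8% of all tested genes. In 13 (14.1%, against 11.2%) the lowest was d1 at stage 1. The highest column was d1 at stage 4 in 53 (57.6%, against 11.1%) and WT at stage 4 in 15 (16.3%, against 9.47%). The 23 genes lower in both had medians of 15.3, 3.87, 1.66 and 2.17 FPKM in d1, and of 15.2, 4.41, 1.93 and 2.05 FPKM in WT. The 112 genes higher in d1 alone had medians of 0.39, 2.84, 1.62 and 1.73 FPKM in d1, and of 0.55, 0.66, 2.14 and 2.05 FPKM in WT. The 133 genes higher in WT alone had medians of 2.07, 1.99, 3.47 and 4.87 FPKM in d1, and of 1.04, 4.71, 3.33 and 5.02 FPKM in WT. Here d1 and WT lay close at stages 4 and 7.

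The opposite steps were mostly of 1 kind: 59 genes were lower at stage 2 in d1 and higher in WT (0.299%), and 7 were higher in d1 and lower in WT (0.0354%). OS11G0167800 (chromosome 11) had 10.5 FPKM at stage 2 and 314 at stage 1 in d1, against 30.9 and 8.57 FPKM in WT. OS07G0147500 (chromosome 7) stood in d1 at 1.19 FPKM at stage 2 and at 22.7 FPKM at stage 1, against 6.53 and 1.40 FPKM in WT. IAA14 (OS03G0797800), an Aux/IAA repressor of auxin responses, in d1 reached 0.59 FPKM at stage 2 and 4.62 at stage 1, against 9.07 and 0.78 FPKM in WT. GIF1 (OS04G0413500), the cell wall invertase of grain filling, had 1.47 FPKM at stage 2 and 5.87 at stage 1 in d1, against 7.26 and 1.91 FPKM in WT. In these 4 genes the high values were d1 at stage 1 and WT at stage 2. Of the other kind, OS03G0181550 (chromosome 3) stood in d1 at 17.3 FPKM at stage 2 and at 0.096 FPKM at stage 1, against 1.01 and 12.2 FPKM in WT. Of the 7 genes of that kind, 4 were listed at 0 in at least 1 of the 4 columns.

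Genes of leaves and photosynthesis, a check on how much leaf tissue the samples hold, took the same crossed course in their median. The list held 20 identifiers that passed the filter, of which only 4 could be matched to a name, and 2 more that did not pass. Their median step was -1.05 in d1 and 1.28 in WT. In d1 10 of the 20 were lower at stage 2 by at least 1 and 1 was higher, and in WT 15 were higher and 0 lower. Over all tested genes the shares were 0.896% lower and 1.45% higher in d1, and 1.98% higher and 0.567% lower in WT. The 4 members matched to a name had medians of -0.23 in d1 and 1.07 in WT, with 1 lower and 1 higher past the threshold in d1. Of the 2 identifiers that did not pass, OS01G0869800 (chromosome 1) went the other way in d1, with 3.61 FPKM at stage 2 and 0.32 at stage 1, against 0.29 and 0.15 FPKM in WT. The summed FPKM of the 20 was 395, 248, 299 and 222 in d1 at stages 1, 2, 4 and 7, and 150, 332, 205 and 226 in WT. The high sums thus came from d1 at stage 1 and from WT at stage 2, and none of the 20 was listed at 0 in any column. The most abundant of the 20, OS11G0242800 (chromosome 11), weighs heavily in these sums and did not cross. It had 120.9 FPKM at stage 2 and 107 at stage 1 in d1, against 113.5 and 64.1 FPKM in WT. Its steps were 0.17 in d1 and 0.81 in WT. These 20 identifiers made up 10 of the 59 genes lower in d1 and higher in WT and 3 of the 133 higher in WT alone, and 0 of the 115 that moved the same way. The part of leaf transcripts in the other opposite steps was not tested. In bulk tissue fewer cells of a type and less RNA per cell cannot be told apart.

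**Figure D5:**
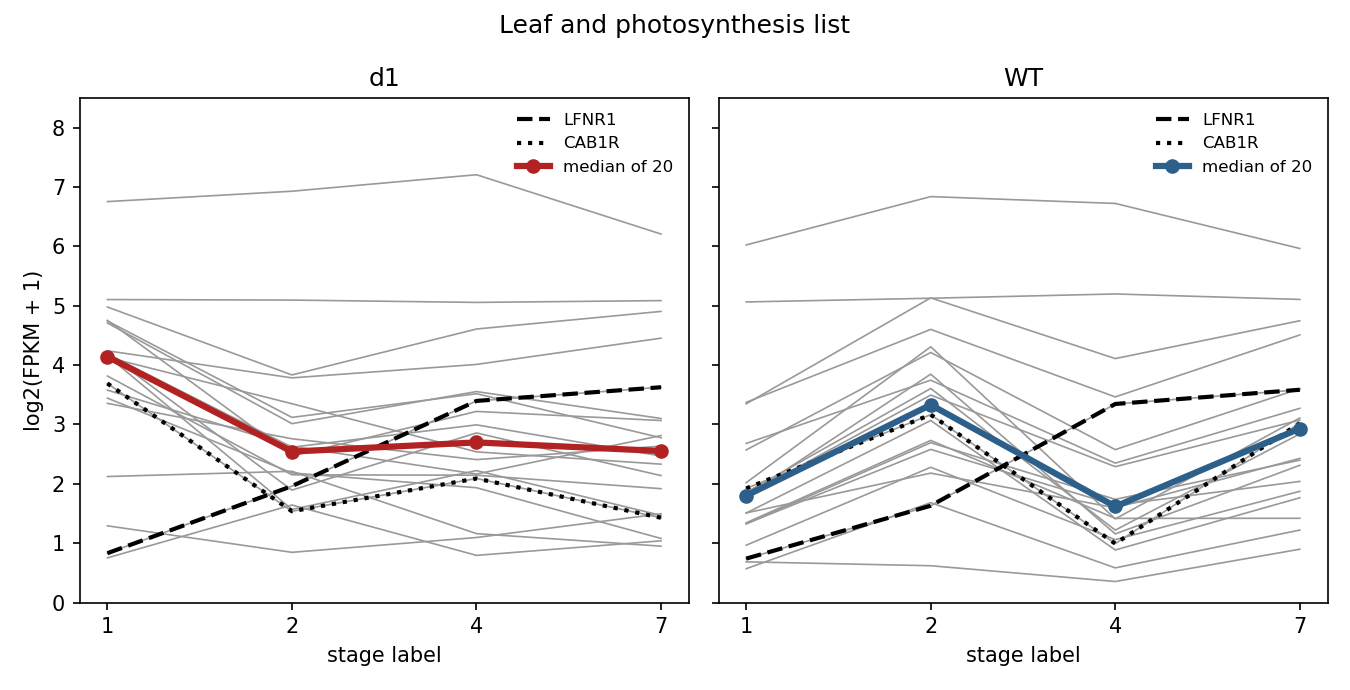
Levels as log2(FPKM + 1) of the 20 leaf and photosynthesis identifiers that passed the filter, in d1 (left) and WT (right) at stages 1, 2, 4 and 7; grey lines are single genes and the thick line is their median. The median is highest at stage 1 in d1 and at stage 2 in WT, while LFNR1 (dashed) goes up over the stages in both genotypes and CAB1R (dotted) follows the median.

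CAB1R (OS09G0346500), a chlorophyll a/b binding protein of the light-harvesting antenna, in d1 reached 1.91 FPKM at stage 2 and 11.9 at stage 1, against 7.98 and 2.79 FPKM in WT. Its steps were -2.15 in d1 and 1.24 in WT. HEMA1 (OS10G0502400), the glutamyl-tRNA reductase at the start of tetrapyrrole synthesis, did not follow the list and lay between 32.3 and 35.7 FPKM in all 8 columns. LFNR1 (OS06G0107700), a leaf-type ferredoxin-NADP reductase, had 2.90 FPKM at stage 2 and 0.78 at stage 1 in d1, against 2.10 and 0.67 FPKM in WT. It rose by 1.01 ± 0.11 over both genotypes (adjusted p = 0.043, limma; 0.026 to 0.23 under the alternative settings). At stage 4 it had 9.54 FPKM in d1 and 9.17 FPKM in WT, so its course was shared by both genotypes, unlike that of CAB1R and PORB.

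The named genes of several other lists stepped little. The 8 named genes of DNA replication and cell division, which hold the 6 subunits MCM2 to MCM7 of the replicative helicase, the sliding clamp PCNA and the kinase CDKA-1, had steps between -0.18 and 0.09 in d1 and between -0.16 and 0.24 in WT. PCNA (OS02G0805200) stood in d1 at 269 FPKM at stage 2 and at 305 FPKM at stage 1, against 246 and 276 FPKM in WT. The 9 named genes of anther and meiosis had steps between -0.31 and 0.21 in d1 and between -0.19 and 0.07 in WT. The 5 named gibberellin genes had steps between -0.41 and 0.33 in the 2 genotypes, with SLRL1 (OS01G0646300), a DELLA-like repressor, at -0.41 in d1 and -0.12 in WT. OS04G0522500 (chromosome 4), an identifier of the gibberellin list without a matched name, stepped far more. It had 128 FPKM at stage 2 and 286 at stage 1 in d1, against 103 and 243 FPKM in WT. Its steps were -1.15 in d1 and -1.23 in WT, with -1.19 ± 0.10 over both (adjusted p = 0.023, limma). Of the 8 brassinosteroid genes, 7 had a negative step in d1 and 5 in WT, with medians of -0.06 and -0.05, near those of all genes.

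Some cytokinin genes showed small differences between the genotypes, which cannot be tested with 1 value per group. RR1 (OS04G0442300) and RR2 (OS02G0557800), type-A response regulators that cytokinin induces, had steps of -0.33 and -0.41 in d1, and of 0.12 and 0.06 in WT. CKX11 (OS08G0460600), a cytokinin oxidase, in d1 reached 14.2 FPKM at stage 2 and 19.4 at stage 1, against 17.3 and 16.8 FPKM in WT. Of the 7 named cytokinin genes 5 had a negative step in d1 and 1 in WT, where 11035 of the 19757 tested genes had one in d1 and 10313 in WT. RR24 likewise had steps of opposite sign, -0.10 in d1 and 0.07 in WT. Of the 7 genes, 2 were positive in both genotypes and 1 was negative in both. The other G protein genes named here, RGB1 (OS03G0669200) of the beta subunit and RGG1 (OS03G0635100) of a gamma subunit, had steps of -0.10 and 0.00 in d1, and of -0.06 and 0.15 in WT. The clock genes GI, LHY and ELF3 stepped by at most 0.25 in either direction.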

How the data were processed

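Total RNA of rice shoot apical meristems was sequenced on an Illumina HiSeq instrument, per the labels' protocols, with about 40 M single-end reads of 150 bases per library. The deposited values are FPKM; the unit was inferred from the tools and the values, since the table names none. The submitters' processing notes name Cuffdiff and Cufflinks, TopHat2, Trimmomatic and FastQC, and the build IRGSP-1.0, with no versions. The authors combined the 2 libraries of a group before deposit. The scaling between columns and any use of strand are not given in the sources. Reads shared by near-identical or overlapping genes may have been split. Depth behind a value is unknown, so no interval or floor is given, and a value of exactly 0 is called listed at 0. No column of per-sample values was left unused (0), and 4802 rows were 0 in all columns. 54 rows joined several names.

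Groups came from the sample titles. The 19757 rows that reached 1 FPKM in 2 or more columns were analysed as log2(FPKM + 1), with steps of at least 1 counted and "alone" meaning within 0.5 of no step in the other genotype. Counts, medians and figures were made in Python 3.11.15 (pandas 2.3.3, numpy 2.4.6, matplotlib 3.10.9). A limma fit (3.58.1, R 4.3.3; eBayes with trend, stage plus genotype, Benjamini-Hochberg over all kept genes, adjusted p under 0.05) had 3 residual and 2.54 prior degrees of freedom; it was tested on simulated data. Genotype steps share no column, and no test of their difference is possible. Alternatives were another pseudocount, filters, scalings, thresholds, weights and subsets of stages.

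Of 311 list identifiers written from general knowledge, 178 were in the table, and 105 of these had their name on the same chromosome in the NCBI gene table (assembly ASM3414082v1, used for names and order only) in the same order; 89 passed the filter. Of 230 names found on the right chromosome 227 were in order. The table's identifiers are not paired with names directly, so other genes are given by identifier, at most 2 per direction, those of the largest step with at least 5 FPKM in 1 of the 4 columns. The members, lists and tests were chosen with earlier results of these data known, and 2 identifiers (G1L3 and G1L4) were added after values had been seen. G1L3 did not pass the order check and is given by its identifier. Not every list member is described in the text, and 1 result is not reported here.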

Additional observations from a re-analysis of the deposited data

Results flagged for a closer look

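Steps past 1 in opposite directions in d1 and WT drew attention, and with 1 combined value per group none of these differences was tested. The d1 step minus the WT step was -2.98 for GIF1 (-1.48 in d1 and 1.51 in WT), -3.40 for CAB1R (-2.15 in d1 and 1.24 in WT) and -4.32 for IAA14 (-1.82 in d1 and 2.50 in WT). It was -6.52 for OS11G0167800 and -5.08 for OS07G0147500, both lower at stage 2 in d1 and higher in WT. It was 6.78 for OS03G0181550 and 5.48 for OS10G0146601, both higher at stage 2 in d1 and lower in WT. For the 20 leaf and photosynthesis identifiers the median d1 step minus the median WT step was -2.33 (-1.05 in d1 and 1.28 in WT).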

How the results depend on the processing

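No paired analysis was possible because each column combines the replicates of its group. A pseudocount of 0.1 gave 1081 genes stepping in d1, 1222 in WT, 360 the same way, 183 in opposite directions, 291 in d1 only and 394 in WT only. A mean of at least 5 FPKM left 190 in d1, 271 in WT, 30 in opposite directions, 33 in d1 only and 75 in WT only, and r of the 2 steps was then 0.357. Without a filter 305 genes stepped in d1 only. A threshold of 0.6 gave 1289, 1361, 382, 177, 616 and 692 genes in the order of the first list, and a threshold of 2 gave 76, 48, 9, 4, 31 and 12. With the other genotype anywhere under the threshold, 283 genes stepped in d1 only and 323 in WT only. Without the leaf list there were 168 and 174. The share of d1 steps found the same way in WT ran from 11.8% (threshold of 2) to 40.5% (mean of at least 5 FPKM). The cause was not tested. Scaling the columns to the same median or by quantiles kept every count within 1.5 times.

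The limma count over both genotypes was 0 without a filter on low values, with stages 1 and 2 only and without stage 4 (2798, 2434 and 1684 at an unadjusted p under 0.05), 20 without stage 7 and 14 with no genotype block; other settings gave 74 to 102. The settings with fewer columns have fewer residual degrees of freedom. No step of a named gene changed direction among those past 1. Of 408 single-gene values under another pseudocount or scaling, 400 stayed on their side of 1, and of 102 list medians 101 did.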

Other observations

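Genes stepping in 1 genotype alone, be it d1 or WT, were unevenly spread over the chromosomes. On chromosome 5, which holds RGA1, 19 of 1643 tested genes were higher at stage 2 in d1 alone (1.16%), against 0.567% over all chromosomes, and 9 were lower in d1 alone (0.548%, against 0.283%). On chromosome 10 there were 0 of 986 higher and 1 lower in d1 alone. The classes of WT alone were uneven too. On chromosome 10, 12 genes were higher in WT alone (1.22%, against 0.673% over all chromosomes). On chromosome 4, 10 of 1691 were lower in WT alone (0.591%, against 0.223%). These values were looked at after the counts were known and were not tested.

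Identifiers that do not end in 00 made up 13.1% of the tested genes. They were 63.6% of the genes lower in WT alone (28 of 44), 35.7% of those higher in d1 alone (40 of 112) and all 7 genes higher in d1 and lower in WT. They were 30.4% of those lower in both (7 of 23) and 9.89% of those higher in both. In the other classes they were 21.2% (higher in WT alone), 17.9% (lower in d1 alone) and 12.1% (lower in d1 and higher in WT). Many of these genes were low. Of the 44 genes lower in WT alone 19 (43.2%) had a mean of at least 5 FPKM, as had 23 of the 112 higher in d1 alone (20.5%) and 56 of the 133 higher in WT alone (42.1%). The share was 69.6% of all tested genes and 64 of the 92 genes higher in both (69.6%).

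CKX11 and RR24 moved little from stage 1 to stage 2 but had other levels later. RR24 (OS02G0182100), a type-B response regulator, had 16.3, 15.1, 29.5 and 43.0 FPKM in d1 at stages 1, 2, 4 and 7, and 17.4, 18.2, 33.8 and 36.0 FPKM in WT.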
